A study of Homo sapiens with 4 samples.

Results

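The levels of 10 long non-coding RNA genes, most of them studied as nuclear transcripts, were followed through LC3B immunoprecipitation: MALAT1, NEAT1, KCNQ1OT1, TUG1, PVT1, FTX, MEG3, MIR17HG, HOTAIRM1 and DANCR. They were chosen by gene symbol, and each symbol matched 1 of the 60676 genes in the deposited tables. The expression filter, a mean of at least 1 read per 1000000 (counts per 1000000 reads, CPM) over the 4 libraries, kept 15431 genes outside the mitochondrial genome. It kept 9 of the 10 long non-coding RNAs and left out MEG3.

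All RNA came from U2OS, an established human osteosarcoma line, with no genetic change or drug named in the labels. Native nuclear RNA immunoprecipitation (nRIP), which recovers RNA bound to a protein without crosslinking, was run with an antibody against LC3B (library nRIP-LC3B) or with control immunoglobulin (library nRIP-IgG). Each pull-down had an input library made without antibody (Input-LC3B and Input-IgG). LC3B is a small ubiquitin-like protein best known for marking autophagosomes once it has been joined to lipid, and part of it is nuclear. Libraries were made from polyadenylated RNA with a low-input kit. Each of the 4 groups held 1 library, so differences could not be checked against replicates and p-values were not computed.

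Long non-coding RNAs can act where they are made. Some build nuclear bodies, as NEAT1 does for paraspeckles. Others gather in them, as MALAT1 does in nuclear speckles, where splicing factors are stored. Several silence or activate neighbouring genes on the same chromosome, and others serve as precursors of microRNAs. TUG1 and DANCR are also known in the cytoplasm, and whether any of the transcripts was nuclear here was not tested, because no cytoplasmic library was analysed here.

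The libraries held 10000914 to 10886762 reads assigned to genes. Mitochondrial genes took 22.8% of the reads of Input-IgG, 20.8% of Input-LC3B, 1.76% of nRIP-IgG and 0.774% of nRIP-LC3B, so CPM was taken over the total without them (8404123 to 10375786 reads). At these totals 3 reads correspond to 0.289 to 0.357 CPM. nRIP-IgG was the sparsest library: 3043 of the filtered genes (19.7%) had no read there, against 54, 54 and 62 genes in Input-IgG, Input-LC3B and nRIP-LC3B. Of 8 genes listed as markers of osteosarcoma cells, 7 passed the filter, with SPARC the most abundant, and COL1A2 had 0 to 3 reads. The summed level of the 8 was 3011, 3421, 2197 and 4077 CPM in Input-IgG, Input-LC3B, nRIP-IgG and nRIP-LC3B. Of 8 markers of other cell types, CD3E, INS and MYH7 had no read in any library and the summed level was 17.1 to 26.7 CPM. Nearly all of it was EPCAM, an epithelial marker, with 153, 128, 253 and 184 reads in the same order, which passed the filter, as did GFAP, a glial marker, at 0.102 to 2.11 CPM. The part of such cells in the results was not tested. In bulk libraries such as these, fewer cells holding an RNA and less of that RNA per cell cannot be told apart.

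A fold is the ratio of CPM in 2 libraries, with an exact 95% binomial interval. The interval covers counting error only: PCR copies are not independent molecules, and spread between cultures or pull-downs is not in it. A gene was called higher where the lower bound reached 2 and lower where the upper bound was 0.5 or less. The comparison of the 2 pull-downs asks which RNAs took a larger or smaller share of the reads with the LC3B antibody than with control immunoglobulin. The comparison of each pull-down with its own input asks the same against the starting material. CPM is a share of a library, so how much RNA each pull-down recovered cannot be read from a fold.

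MALAT1 and NEAT1, the neighbouring nuclear-body RNAs on chromosome 11, were the abundant transcripts of the set that nRIP-LC3B held at the lowest level of all 4 libraries. MALAT1 fell to 0.209 times its nRIP-IgG level and NEAT1 to 0.392 times. TUG1 and KCNQ1OT1 lay the other way, at 2.42 and 9.47 times nRIP-IgG, with KCNQ1OT1 resting on 2 reads there. DANCR was the member with the highest nRIP-LC3B level over its input, at 1.48 times, which was not called.

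**Figure D1:**
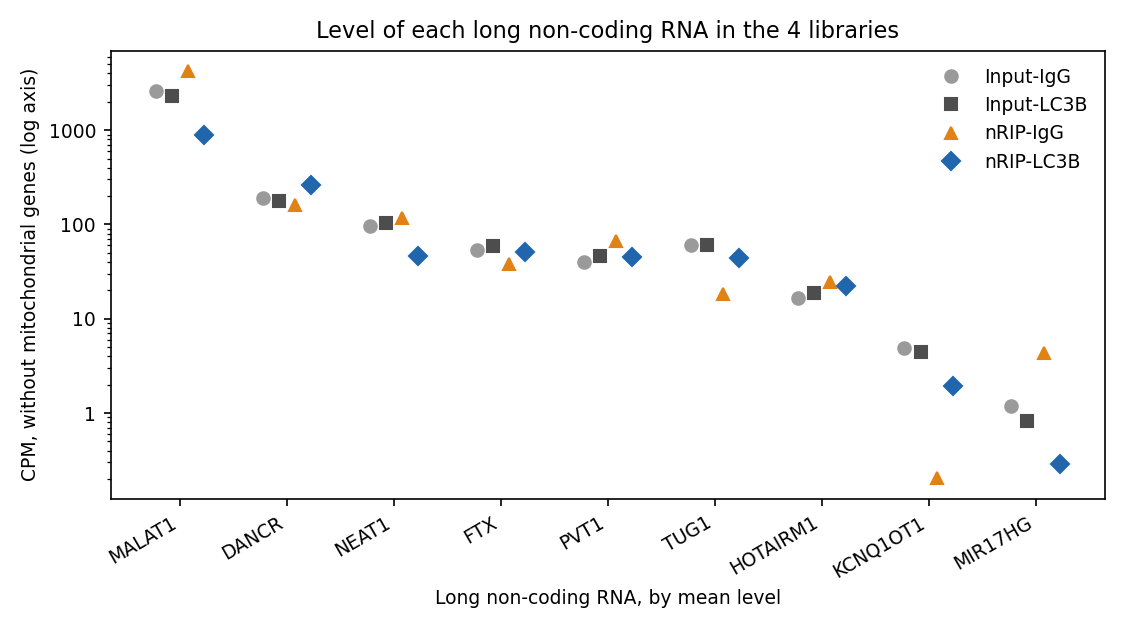
Level of each of the 9 long non-coding RNAs that passed the filter, in CPM on a log axis, with 1 symbol per library and no error bars. MALAT1 (883 CPM) and NEAT1 (46.1 CPM) were lowest in nRIP-LC3B, while KCNQ1OT1 (0.204 CPM) and TUG1 (18.1 CPM) were lowest in nRIP-IgG.

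MALAT1 (ENSG00000251562, hg38 chromosome 11, 65497688 to 65506516, plus strand) spans 8829 nucleotides. Its primary transcript is cut at the 3′ end to release a small tRNA-like RNA, and the long product ends in a triple helix rather than a poly(A) tail. The libraries were made from polyadenylated RNA, and how fully they caught this product was not tested. It was counted with 21624 reads in Input-IgG, 19809 in Input-LC3B, 41588 in nRIP-IgG and 9161 in nRIP-LC3B. These are 2573, 2319, 4233 and 883 CPM. nRIP-IgG was the highest library and nRIP-LC3B the lowest, with the inputs between them. Among all genes its rank by read count was 17 and 23 in the inputs, 9 in nRIP-IgG and 110 in nRIP-LC3B.

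Library nRIP-LC3B was 0.209 (95% interval 0.204 to 0.213) of nRIP-IgG and 0.381 (0.371 to 0.390) of its own input for MALAT1, both called lower. nRIP-IgG was 1.65 (1.62 to 1.67) times its input, short of a call. With totals over all genes, mitochondrial ones included, that value was 2.09 and was called.

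NEAT1 (ENSG00000245532, chromosome 11, 65422774 to 65445540, plus strand) spans 22767 nucleotides. It makes a short polyadenylated transcript and a long one that is the scaffold of paraspeckles. Which of them was counted in these libraries of polyadenylated RNA was not tested. NEAT1 had 802 reads in Input-IgG, 895 in Input-LC3B, 1156 in nRIP-IgG and 478 in nRIP-LC3B, or 95.4, 104.8, 117.7 and 46.1 CPM. The order matched that of MALAT1 in that nRIP-IgG was highest and nRIP-LC3B lowest.

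Library nRIP-LC3B held NEAT1 at 0.392 (0.351 to 0.436) of nRIP-IgG and 0.440 (0.393 to 0.492) of its input, both called lower. The second call was lost with totals over all genes (0.551), with trimmed-mean scaling (0.450), against the other input (0.483) and against both inputs summed (0.460). nRIP-IgG over its input was 1.23 (1.13 to 1.35).

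Reads of 1 gene over reads of another in the same library do not depend on scaling, though they still depend on gene length. MALAT1 had 27.0 (25.1 to 29.0) reads per NEAT1 read in Input-IgG and 22.1 (20.7 to 23.7) in Input-LC3B. It had 36.0 (33.9 to 38.2) in nRIP-IgG and 19.2 (17.5 to 21.1) in nRIP-LC3B. The ratio was thus highest in nRIP-IgG and lowest in nRIP-LC3B, where its interval overlapped that of Input-LC3B. Against DANCR, MALAT1 had 13.4, 13.0, 26.5 and 3.33 reads per DANCR read in Input-IgG, Input-LC3B, nRIP-IgG and nRIP-LC3B, a wider range.

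KCNQ1OT1 (chromosome 11, 2608328 to 2699994, minus strand) is a 91667-nucleotide antisense RNA in the KCNQ1 gene that silences neighbouring imprinted genes in cis. It had 41 reads in Input-IgG, 38 in Input-LC3B, 2 in nRIP-IgG and 20 in nRIP-LC3B, at most 4.88 CPM. nRIP-LC3B was 9.47 (2.30 to 83.6) times nRIP-IgG, called higher, and 0.433 (0.239 to 0.764) of its input, not called. nRIP-IgG was 0.0417 (0.00489 to 0.161) of its input, called lower. Both pull-downs thus lay below their inputs, and the interval over nRIP-IgG is wide because it rests on 2 reads. Few reads in nRIP-IgG were common at this abundance: 1433 of 3366 genes (42.6%) with 3 to 10 input CPM had at most 2 there, and 51.1% were called higher between the pull-downs. KCNQ1, on the opposite strand, had 12, 11, 0 and 6 reads in Input-IgG, Input-LC3B, nRIP-IgG and nRIP-LC3B, and whether reads of the pair were told apart is not given in the sources used here.

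TUG1 (chromosome 22, 30969245 to 30979395, plus strand) is linked to Polycomb regulation. It spans 10151 nucleotides with 20 annotated transcripts and is classed as protein coding in RefSeq. It had 512 reads in Input-IgG, 516 in Input-LC3B, 178 in nRIP-IgG and 455 in nRIP-LC3B. nRIP-IgG stood apart at the low end, with 18.1 CPM against 43.9 to 60.9 CPM in the other libraries. nRIP-LC3B was 2.42 (2.03 to 2.89) times nRIP-IgG, called higher, and 0.726 (0.639 to 0.825) of its input. nRIP-IgG was 0.297 (0.249 to 0.353) of its input, called lower. Among 3580 genes at 30 to 100 input CPM, 20.9% were called higher between the pull-downs. TUG1's call was lost with trimmed-mean scaling (2.35), median-of-ratios scaling (2.23) and the deposited TPM (1.45).

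PVT1 (chromosome 8, 127794526 to 128187101, plus strand) is a locus often amplified in tumours, with 182 annotated transcripts over 392576 nucleotides. Its reads were 336 in Input-IgG, 396 in Input-LC3B, 656 in nRIP-IgG and 473 in nRIP-LC3B. nRIP-LC3B was 0.683 (0.605 to 0.770) of nRIP-IgG and 0.983 (0.859 to 1.13) of its input, and neither was called. nRIP-IgG was 1.67 (1.46 to 1.91) times its input, so that it was the library that stood apart. In the deposited TPM the order of the pull-downs was turned: 68.29 in nRIP-IgG and 126.68 in nRIP-LC3B, a ratio of 1.83 once mitochondrial genes were left out of the TPM totals.

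FTX (X chromosome, 73940435 to 74293574, minus strand) lies in the X-inactivation centre, and its 72 transcripts span 353140 nucleotides. It had 448 reads in Input-IgG, 510 in Input-LC3B, 372 in nRIP-IgG and 530 in nRIP-LC3B. The folds were 1.35 (1.18 to 1.54) over nRIP-IgG and 0.856 (0.756 to 0.968) over the input, neither called, and nRIP-IgG was 0.710 (0.617 to 0.817) of its input. With totals over all genes the fold of nRIP-LC3B over the input was 1.07. Scaling by transcript length in the deposited TPM gave 2.26 over nRIP-IgG, past the call threshold. Reads of FTX and of JPX, which overlaps it on the opposite strand over 126227 nucleotides, could be split or shared by the counting, since the strand setting is not given in the sources used here; JPX had 578, 692, 715 and 693 reads in Input-IgG, Input-LC3B, nRIP-IgG and nRIP-LC3B.

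HOTAIRM1 (chromosome 7, 27095647 to 27100265, plus strand) runs antisense through the start of the HOXA cluster. It had 138 reads in Input-IgG, 159 in Input-LC3B, 243 in nRIP-IgG and 230 in nRIP-LC3B. The pull-downs lay close together, at 0.896 (0.745 to 1.08), an interval that includes 1, and both lay above their inputs, at 1.19 (0.969 to 1.47) for LC3B, which includes 1, and 1.51 (1.22 to 1.87) for IgG.

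DANCR (chromosome 4, 52712404 to 52720351, plus strand) hosts small nucleolar RNAs and is known for holding back differentiation. Its reads were 1616 in Input-IgG, 1529 in Input-LC3B, 1570 in nRIP-IgG and 2752 in nRIP-LC3B, the highest being nRIP-LC3B at 265 CPM. The folds of 1.66 (1.56 to 1.77) over nRIP-IgG and 1.48 (1.39 to 1.58) over the input both stayed short of a call, and nRIP-IgG was 0.831 (0.775 to 0.891) of its input, a value that crossed 1 with totals over all genes (1.06). It ranked 9 among long non-coding genes in both inputs and in nRIP-LC3B, and 12 in nRIP-IgG.

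MIR17HG (chromosome 13, 91347820 to 91354579, plus strand) is the primary transcript of the miR-17-92 cluster, whose 6 hairpins sit inside it, from 91350605 to 91351391. It had 10 reads in Input-IgG, 7 in Input-LC3B, 43 in nRIP-IgG and 3 in nRIP-LC3B. Its mean of 1.67 CPM passed the filter only through nRIP-IgG and was 0.766 CPM without that library. nRIP-LC3B was 0.0661 (0.0131 to 0.206) of nRIP-IgG, called lower, and 0.353 (0.0589 to 1.55) of its input. nRIP-IgG was 3.68 (1.82 to 8.21) times its input, not called. It was called higher against the other input (5.34), both inputs summed (4.36) and with totals over all genes (4.68). The TPM fold was 5.67, a value without an interval.

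The mature microRNAs of the cluster are shown here because they are what MIR17HG encodes, and a library of polyadenylated RNA is not made to capture them. All 20 microRNA features overlapping the 10 genes had 0 reads in all 4 libraries. Capitals mark the seed, bases 2 to 8, and the sequences are from RefSeq (GRCh38.p14).
hsa-miR-17-5p: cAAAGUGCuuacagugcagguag
hsa-miR-20a-5p: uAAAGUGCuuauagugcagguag
hsa-miR-18a-5p: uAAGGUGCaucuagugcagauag
hsa-miR-19a-3p: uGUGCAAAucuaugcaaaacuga
hsa-miR-19b-3p: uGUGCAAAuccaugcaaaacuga
hsa-miR-92a-3p: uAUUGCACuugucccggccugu
The 6 arms carry 4 seeds, since hsa-miR-17-5p shares AAAGUGC with hsa-miR-20a-5p and hsa-miR-19a-3p shares GUGCAAA with hsa-miR-19b-3p.

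MEG3 (chromosome 14, 100779410 to 100861031, plus strand), an imprinted RNA expressed from the maternal allele and lost in many tumours, had 0, 0, 0 and 1 read in Input-IgG, Input-LC3B, nRIP-IgG and nRIP-LC3B. Those 3 libraries with no read each allow up to 0.305 to 0.357 CPM, so nothing can be said of its recovery at this depth.

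The folds of the 9 genes are set out by comparison in the plot of folds. Between the pull-downs 5 of 9 were called, 2 higher (KCNQ1OT1, TUG1) and 3 lower (MALAT1, NEAT1, MIR17HG). Of all 15431 genes, 33.8% were called higher and 9.45% lower, so both kinds of call were common here. MIR17HG passed the filter only through nRIP-IgG, so its low value here was partly set by the filter. The members had a median of -0.16 (log2), against 0.43 over all genes and 0.75 over the 2121 long non-coding genes. Without MIR17HG the middle of the members lay between HOTAIRM1 (-0.16) and FTX (0.43), so the sign of their median rested on it. Among those 2121 genes, 775 were called higher and 239 lower.

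Library nRIP-LC3B over its input gave 0 of 9 called higher and 2 of 9 lower, MALAT1 and NEAT1. Of all genes, 1.40% were called higher and 4.48% lower. Lower calls were more frequent at the input levels of these 2. They were made for 10.9% of 1718 genes at 100 to 300 CPM and 6.25% of 80 genes at 1000 CPM or more. The medians were -0.46 (log2) for the members, 0.02 over all genes and 0.18 over long non-coding genes. nRIP-IgG over its input gave 0 of 9 higher and 2 of 9 lower, TUG1 and KCNQ1OT1, against 9.69% higher and 33.6% lower over all genes. The medians there were 0.30 (log2) for the members, -0.45 over all genes and -0.43 over long non-coding genes. The first again includes MIR17HG, which passed the filter only through nRIP-IgG. Without it the middle of the members lay between DANCR (-0.27) and NEAT1 (0.30).

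**Figure D2:**
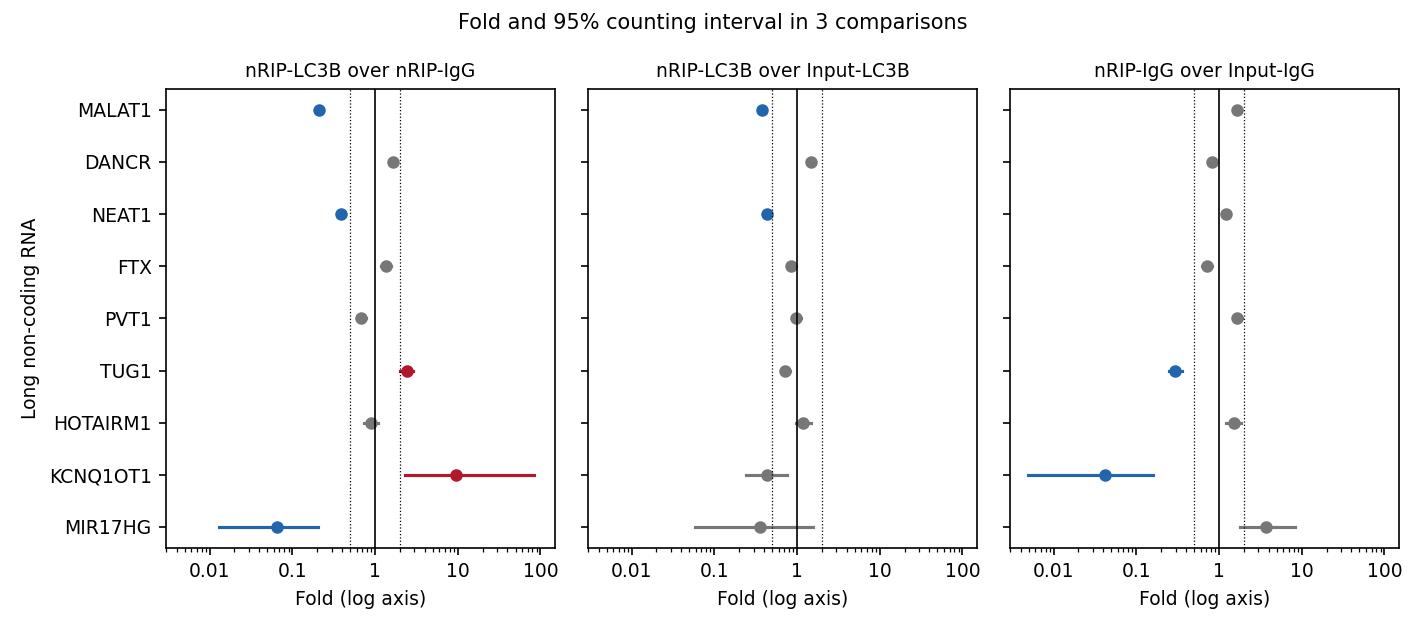
Fold of each long non-coding RNA on a log axis in 3 comparisons, 1 panel each, with bars for the 95% counting interval, dotted lines at 2 and 0.5, red for genes called higher, blue for lower and grey for no call. MALAT1 and NEAT1 are blue in the left panel (0.209 and 0.392) and in the middle one (0.381 and 0.440), and TUG1 and KCNQ1OT1 are blue in the right one (0.297 and 0.0417).

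The 2 inputs differed little: 0 of 9 members were called in either direction, and 0.136% and 0.156% of all genes were called higher and lower. Folds of Input-LC3B over Input-IgG ran from 0.689 (0.222 to 2.0) for MIR17HG to 1.16 (1.0 to 1.34) for PVT1. With each pull-down divided by its own input before comparison, 1 of 9 was called higher (KCNQ1OT1, 8.51) and 3 lower (MALAT1, NEAT1, MIR17HG), against 29.1% and 7.58% of all genes. TUG1, at 2.44 (1.97 to 3.01), was no longer called. MIR17HG is counted here too, though it passed the filter only through nRIP-IgG. These comparisons share libraries and are not separate evidence.

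Low calls over both nRIP-IgG and Input-LC3B were less frequent. They were made for 189 of 15431 genes (1.22%), among them MALAT1 and NEAT1, and for 17 of the 2121 long non-coding genes (0.802%). Of the 27 long non-coding genes at 100 CPM or more in the inputs, MALAT1 and NEAT1 were the 2 that were lower in both; NEAT1, at 100.1 CPM, stands just inside this limit, which was chosen after the values were seen. At 50 CPM or more it was 3 of 73. At 1000 CPM or more, 4 of 80 genes of any kind were lower in both, MALAT1 among them. Higher calls between the pull-downs moved with abundance, from 37.4% of 3568 genes at 10 to 30 CPM in the inputs to 8.96% of 1718 genes at 100 to 300 CPM. Lower calls were made for 8.10% and 7.80% of the same genes. Whether abundance had a part in the calls of single members was not tested.

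**Figure D3:**
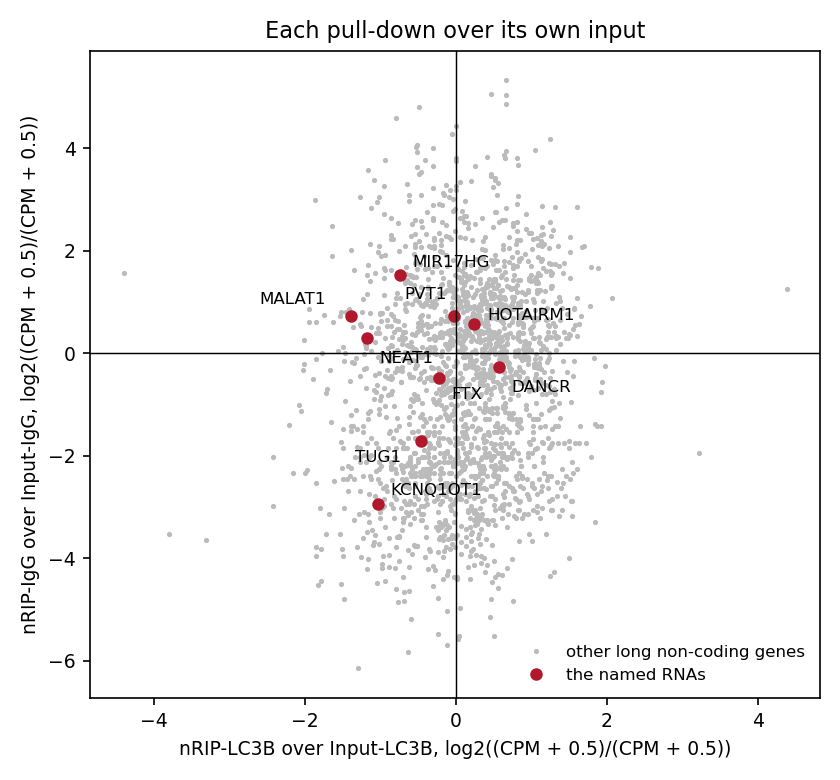
Each of the 2121 long non-coding genes that passed the filter as a point, with nRIP-LC3B over Input-LC3B on the x axis and nRIP-IgG over Input-IgG on the y axis, both as log2 ratios with 0.5 CPM added. The 9 named RNAs are red: MALAT1 and NEAT1 lie left of 0 and above 0, DANCR right of 0 and below 0, and TUG1 and KCNQ1OT1 below 0 on both axes.

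MALAT1 was the largest part of the reads of the set. The 10 genes took 0.304% (exact interval 0.30 to 0.307) of the reads of Input-IgG, 0.279% (0.276 to 0.283) of Input-LC3B, 0.466% (0.462 to 0.471) of nRIP-IgG and 0.136% (0.134 to 0.138) of nRIP-LC3B. Without MALAT1 the shares were 0.0464%, 0.0474%, 0.0430% and 0.0476% in the same order. MALAT1 made up 84.7%, 83.0%, 90.8% and 65.0% of the set's reads. Of the reads of all long non-coding genes it made up 9.67%, 8.56%, 15.8% and 2.96%, while these genes together took 2.66%, 2.71%, 2.69% and 2.98% of the total.

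Some protein-coding genes had nearly the same profile over the 4 libraries. Among 4148 genes at 50 CPM or more, the profile nearest to MALAT1's, by Euclidean distance between log2 profiles centred on their mean, was that of COMMD10 (distance 0.124; 1116, 1127, 2382 and 518 reads in Input-IgG, Input-LC3B, nRIP-IgG and nRIP-LC3B). ISCU (0.145) and WDR43 (0.186) came next. NEAT1 was nearest to MED7 (0.0655; 787, 917, 1179 and 465 reads in the same order), and then PRPF39 (0.0802) and TIPRL (0.0846). MALAT1 and NEAT1 were 0.686 apart. The nearest genes were picked as the closest of 4148, so they cannot show whether this distance was large or small. Its rank among all the distances is not reported here.

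The lists of related genes were described by count, to be read beside the shares called between the pull-downs. These were 33.8% higher and 9.45% lower over all genes, and 36.5% and 11.3% over long non-coding genes. Of 10 other nuclear long non-coding RNAs that passed the filter, 4 were called higher between the pull-downs and none lower. The most abundant, LINC00667, was 2.94 (2.63 to 3.29) times nRIP-IgG, and LINC-PINT, whose transcript is linked to Polycomb, was 63.4 times (11 to 2543) with 1 read in that library. Of 9 cytoplasmic ones, 2 were called higher, ZFAS1 (3.24; 2.73 to 3.86) and CYTOR (2.31; 2.12 to 2.53), while OIP5-AS1, the most abundant, was at 0.535 (0.498 to 0.574) and not called. Also called higher among the nuclear ones were FIRRE and HELLPAR, with 1 and 4 reads in nRIP-IgG. At 3 to 10 input CPM 51.1% of all genes were called higher, and at 10 to 30 CPM 37.4%. The medians of the fold were 2.04 for the nuclear and 0.845 for the cytoplasmic list, against 1.35 over all genes. The lists were not matched for abundance, and whether it had a part in these medians was not tested.

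MIR17HG was called lower between the pull-downs, having passed the filter only through nRIP-IgG. Of 9 other microRNA host genes, 1 was called lower too, MIR210HG (0.214, interval 0.104 to 0.406). Of the 9, 5 were called higher, where 52.5% of all genes at 1 to 3 input CPM and 51.1% at 3 to 10 CPM were. Of those 5, MIR193BHG, MIR100HG, MIRLET7BHG and MIR181A1HG had no read in nRIP-IgG. For MIR193BHG the lower 95% bound of the fold was 16.7, and the fold with 3 reads in place of 0 was 21.1. The median with 0 set to 3 reads was 4.73. MIR4435-2HG, the most abundant, was at 1.79 (1.68 to 1.90) and not called.

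Among 15 genes for paraspeckle proteins, 1 was called higher and 1 lower between the pull-downs, and the median fold was 1.28. Called lower was CPSF6, a cleavage factor, at 0.428 (0.399 to 0.459). HNRNPK, the most abundant, was at 1.72. Among 16 genes for nuclear speckle proteins, 2 were called higher and 1 lower, with a median of 1.04. SRSF2 was at 2.39 (2.25 to 2.54), TRA2A at 2.41 and SON, a scaffold of the speckle, at 0.348 (0.314 to 0.386). SRSF5, the most abundant, was at 0.894. Against Input-LC3B, 0 of the 15 paraspeckle genes and 1 of the 16 speckle genes (SRRM1, lower) were called. Of all genes, 1.40% were called higher and 4.48% lower there.

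Of 9 genes for microRNA processing, 2 were higher and 2 lower, with a median of 0.589. DICER1, the enzyme that cuts hairpins, had no read in nRIP-IgG and 105 in nRIP-LC3B, 33.1-fold higher with 3 reads in place of 0. The lower 95% bound of its fold was 26.5. AGO4 was at 0.106 (0.067 to 0.162) and DGCR8, a partner of the nuclear enzyme, at 0.245 (0.178 to 0.331). Of 11 neighbours of the 10 loci, JPX included, 3 were higher (GPC5 and LTBP3, neither with a read in nRIP-IgG, among them) and 1, SLC22A18 (0.413), lower.

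Because TPM divides counts by a length, the deposited counts and TPM together imply the length used for each gene in each library. The scale was set on genes with 1 annotated transcript. A straight line of span on counts over TPM was chosen to hold as many of them as possible within 1%. Of 234 spanning up to 10000 nucleotides, 122 lay that close, a count that is no separate check of the line. Between libraries, the counts over TPM of 369 genes with 1 transcript stayed within 0.998 to 1.01 of their Input-IgG value after scaling (5% to 95% range). NORAD, with 1 transcript, came out at 5391 to 5402 nucleotides in all 4 libraries. It was among the genes that set the scale, so its value is no separate check either. In genes with several transcripts the implied length moved between libraries, and how it was set is not given in the sources used here.

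The implied length of MALAT1 was 940, 945, 879 and 931 nucleotides in Input-IgG, Input-LC3B, nRIP-IgG and nRIP-LC3B, short of its 8829-nucleotide span, and that of NEAT1 was 1912, 1627, 1495 and 1986. The TUG1 value was 3471 in nRIP-IgG and 5438 to 5776 elsewhere. PVT1 was 1131 in nRIP-IgG and 553 in nRIP-LC3B. Because these lengths were derived from its reads and TPM, they restate the turned order of its TPM and do not account for it separately. FTX was 11482 in nRIP-IgG and 7068 in nRIP-LC3B. HOTAIRM1 (668 to 675) and DANCR (806 to 829) moved little.

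Between the pull-downs the length of PVT1 differed by -1.03 (log2), as large a shift as in 2.17% of 6680 genes with several transcripts. For TUG1 the shift was 0.73 (4.99%), for FTX -0.70 (5.46%) and for NEAT1 0.41 (14.0%), while MALAT1's was 0.08 (51.2%). These were looked at after the data were seen, and which transcripts were present was not tested.

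**Figure D4:**
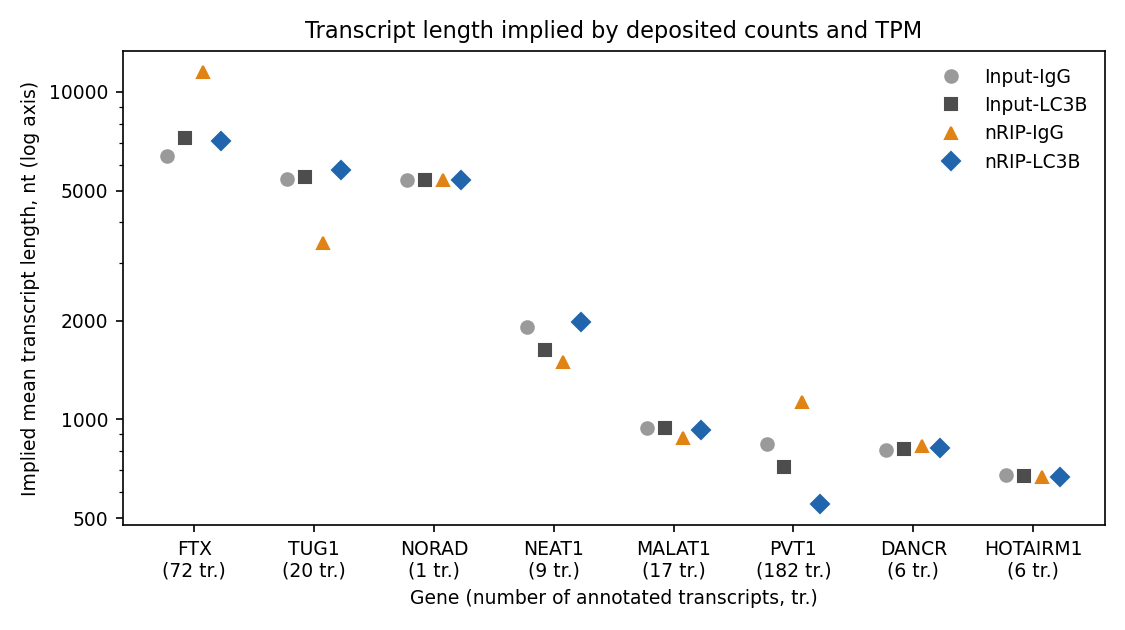
Mean transcript length implied by the deposited counts and TPM, in nucleotides on a log axis, with 1 symbol per library for 7 of the long non-coding RNAs and for NORAD, which has 1 annotated transcript. NORAD was among the genes that set the scale. HOTAIRM1 and DANCR stay within 668 to 675 and 806 to 829 nucleotides, while PVT1 runs from 553 in nRIP-LC3B to 1131 in nRIP-IgG and FTX from 6363 in Input-IgG to 11482 in nRIP-IgG.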

How the data were processed

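Libraries were 1 each of input and pull-down for IgG and LC3B, from U2OS cells. The deposited tables held read counts per gene, which the authors gave with grouping commas that were removed here, and TPM per gene, also deposited by the authors, both with gene positions, per the file headers. The build hg38, adapter trimming with cutadapt 2.8 and alignment with STAR 2.7.1a are per the submitters' processing notes. The sources used here do not name the counting tool, annotation release, strand setting or the treatment of duplicates and multiply mapped reads. Because a gene's reads can be shared with an overlapping or antisense gene, counts of such genes are uncertain.

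Values were CPM over the total without 37 mitochondrial genes, filtered at a mean of 1 CPM. Folds had exact conditional binomial intervals, input-corrected ratios log-normal ones with 0.5 added to each count, and calls needed the whole interval past 2 or 0.5. TPM folds had no interval and were called on the value alone. Trimmed-mean and median-of-ratios scaling were computed from their published definitions. Calculations used Python 3.11.15, numpy 2.4.6, scipy 1.17.1 and pandas 2.3.3, and were tested on simulated data. No replicates existed, so nothing was tested across samples. Named genes were the 10 members, features overlapping them, the most abundant gene and the called genes of largest and smallest fold of each list, and the 3 nearest profiles of at least 50 CPM to MALAT1 and NEAT1 (log2 of CPM + 0.5). SRSF2, DGCR8, SRRM1, FIRRE, HELLPAR and further host genes and neighbours were named after their values were seen. The values of some genes in the lists are not reported here. Members and lists were chosen with earlier results of these data known. Alternatives were other totals and scalings, TPM, other filters and bounds, the other input and both inputs summed, the last and a filter on the inputs chosen after seeing the data.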

Additional observations from a re-analysis of the deposited data

Results flagged for a closer look

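For MALAT1 the IgG pull-down lay above its input (1.65) and the LC3B pull-down below its own (0.381), each with its counting interval on its own side of 1; the input-corrected ratio was 0.231. NEAT1 did the same, at 1.23 and 0.440, with a corrected ratio of 0.357. DANCR went the other way, at 0.831 and 1.48, with a corrected ratio of 1.78, but with totals over all genes its IgG pull-down lay above its input too (1.06). The difference was not tested for any of them, since each pull-down held 1 library.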

How the results depend on the processing

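Each group held 1 library, so leaving out a replicate was not possible. No paired analysis was possible because each group holds 1 library. Folds of single members were recomputed under 8 of the 14 alternative settings. Of these 231 values, 202 kept their direction and side of the threshold, 10 passed it and 7 lost it. The other 12 crossed 1 without a call, among them PVT1 between the pull-downs (1.83 in TPM), its corrected ratio (1.27 in TPM) and DANCR over the IgG input (1.06 with all-gene totals). No called value changed direction. The count of called members, 5 between the pull-downs, 2 for the LC3B pull-down over its input, 2 for the IgG pull-down over its input and 4 for the corrected ratio, changed as follows. Totals over all genes gave 1 over the LC3B input and 4 over the IgG input. Trimmed-mean scaling, the other input and both inputs summed each gave 1 over the LC3B input, MALAT1. Lower calls were made there for 4.10%, 4.52% and 4.59% of all genes. The deposited TPM and folds without an interval, both called on the value alone, each gave 4 over the LC3B input. Between the pull-downs, trimmed-mean scaling, median-of-ratios scaling and the TPM gave 4. Of all genes, 33.3%, 32.3% and 18.9% were called higher and 9.95%, 11.2% and 14.9% lower. Over the IgG input, the TPM, folds without an interval, the other input and both inputs summed gave 3. Of all genes, 13.9%, 14.9%, 9.20% and 10.2% were called higher and 20.0%, 39.4%, 34.3% and 35.1% lower. Folds without an interval gave 5 for the corrected ratio, where 39.3% of all genes were called higher and 15.1% lower. A filter of 5 CPM gave 3, 1 and 2 between the pull-downs, over the IgG input and for the corrected ratio. Of the 11394 genes it kept, 25.7%, 9.49% and 24.2% were called higher and 9.41%, 26.1% and 8.10% lower. Bounds of 1.5 gave 6, 4 and 6 in the order between the pull-downs, over the IgG input and for the corrected ratio. Of all genes, 40.5%, 16.5% and 36.1% were then called higher and 17.3%, 39.9% and 14.4% lower. Without MALAT1 the members' share of reads was 0.0464%, 0.0474%, 0.0430% and 0.0476% in Input-IgG, Input-LC3B, nRIP-IgG and nRIP-LC3B. With all-gene totals the members' share of reads was 0.234%, 0.221% and 0.458% in the first 3 of these. The filter of 5 CPM leaves out KCNQ1OT1 and MIR17HG; for the other changes the cause was not tested. Totals over all genes moved the median of all genes by 0.32 and 0.35 (log2) over the inputs. KCNQ1OT1 had no TPM fold over the IgG pull-down, being listed at 0.00 there. Counting depth limits KCNQ1OT1, MIR17HG and MEG3 most.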

Other observations

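Of the 27 long non-coding genes at 100 CPM or more in the inputs, 4 were called lower in nRIP-LC3B than in Input-LC3B. Beside MALAT1 and NEAT1 these were FGD5-AS1, at 0.303, and NORAD, a cytoplasmic RNA that binds Pumilio proteins, at 0.347. A further 4 were higher in nRIP-LC3B than in nRIP-IgG: AL662797.2, SNHG29, LINC00667 and NECTIN3-AS1. At 100 to 300 input CPM, 10.9% of 1718 genes were called lower over Input-LC3B and 8.96% higher over nRIP-IgG. Of the 80 features of the tables that overlap the 10 genes, 58 had no read in any library.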
